A study of Mus musculus with 6 samples.

Results

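The 10 genes Ube2o, Ube2l6, Ube2h, Fbxo7, Trim10, Trim58, Xpo7, Hdac2, Dnase2a and Diaph2 encode ubiquitin enzymes and proteins of nuclear condensation, nuclear expulsion and nuclear digestion that are known from late red cell development. They were chosen by name, and every probe set annotated to one of them was taken. A probe set is a group of short probes on an Affymetrix array that together report on a transcript. The rule gave 23 of the 45101 probe sets on the array, for 9 of the 10 genes. Across the array 18194 genes had a probe set of their own. Trim58, a ubiquitin ligase that acts on the motor protein dynein in mouse erythroblasts, was not analysed here. The 23 probe sets were 8 for Xpo7, 4 for Ube2h, 3 for Hdac2, 2 each for Dnase2a and Diaph2, and 1 each for Ube2o, Ube2l6, Fbxo7 and Trim10. One of the Dnase2a probe sets is annotated to the predicted gene Gm38426 as well and is given as shared.

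The arrays carried RNA of early erythroid progenitors from the livers of mouse fetuses at day 13.5. Of the 6 arrays, 3 were labelled as fetal livers homozygous for a knockout of Eklf (Eklf -/-) and 3 as wild-type fetal livers. The sample names number the livers within each group, and pooling of livers cannot be told from these names. The labels give C57BL/6 as the strain of both groups, and for the knockout they cite a line made from a strain 129 genomic clone whose targeted cells were injected into C57BL/6 blastocysts. Cells of both groups were sorted by flow cytometry after staining with the dead-cell dye 7AAD and with antibodies to 2 surface proteins that change as red cells mature, CD71 and Ter119. No gate is given in the sources used here. Eklf, whose gene symbol is Klf1, is a DNA-binding transcription factor with zinc fingers that drives red cell genes, and the comparison asks how transcripts of the progenitors differ when it is lost.

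A red cell precursor becomes a reticulocyte by condensing its chromatin, expelling its nucleus and clearing much of its protein content. Clearance runs through ubiquitin, which is passed from an activating E1 enzyme to a conjugating E2 enzyme and then, with an E3 ligase, to the protein to be degraded. Expulsion uses an actomyosin ring built with formins and Rac proteins, and the expelled nucleus is taken up by the macrophage at the centre of the erythroblastic island, which digests its DNA. Mice lacking Eklf are known to die as fetuses of a failure of red cell maturation.

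Arrays are named knockout-labelled and wild-type-labelled, since the targeted gene did not separate them. The probe set listed for Klf1 (1418600_at) gave 3505, 1391 and 2545 on the knockout-labelled arrays, against 2508, 2706 and 4030 on the wild-type-labelled arrays. The difference was -0.38 ± 0.32 (SE, log2, n = 3 each) and did not pass the test (limma adjusted p = 0.358). Where these probes lie relative to the deletion is not given in the sources used here, and probes outside it check nothing. Each array had a trimmed mean signal of 500, and the median signal was 204 to 218 on the knockout-labelled arrays and 97.7 to 140 on the wild-type-labelled arrays. The difference of a typical probe set was above 0, with a median of 0.32 on the log2 scale over the 27023 probe sets tested, and differences are also given relative to that median. With 3 arrays per group, the precision of each value is limited by their number.

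Many markers of the sorted cells and of other cells differed between the groups, while the summed neutrophil signals overlapped. On the knockout-labelled arrays 6 of 7 tested erythroid markers were higher and 0 lower, with a summed signal of 63832 to 86945 against 21200 to 23045 on the wild-type-labelled arrays. Of 10 hepatocyte markers 10 were higher (109419 to 180541 against 7879 to 8589), of 7 megakaryocyte markers 7 were higher (31253 to 40101 against 7218 to 8502), and of 9 macrophage markers 8 were higher and 1 lower (12393 to 16426 against 10193 to 12277). Of 6 lymphoid markers 6 were lower (707 to 1074 against 18760 to 29489), and of 8 neutrophil markers 5 were lower (92031 to 194940 against 164970 to 191524). The sums take in every marker with a probe set, also those under the filter described below, 3 for macrophages and 1 for lymphoid cells. The lymphoid sums were low on the knockout-labelled arrays, so some lymphoid markers may have passed that filter only through the wild-type-labelled arrays. No marker in these lists was at exactly 0, and Cd163, a macrophage receptor, was dim in both groups. The median difference of the tested erythroid markers was 1.89 on the log2 scale, and the higher member calls below ran from 0.70 to 3.12. The part that the erythroid difference and these other cells have in the differences below was not tested. In such bulk samples fewer cells of a type and less RNA per cell cannot be told apart.

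Of the 23 probe sets 17 passed the filter on dim signals, a mean of at least 98.6 over the 6 arrays on the log2 scale, and were tested. Of these 6 had a higher and 2 a lower knockout-labelled signal at an adjusted p under 0.05 (limma with Benjamini-Hochberg adjustment over all probe sets tested), and 9 did not pass. The share called, 47.1% of the 17, lies near the 43.8% of all tested probe sets that were called, of which 28.1% were higher and 15.7% lower. The median difference of the 17 was 0.48 on the log2 scale, against 0.32 for all tested probe sets. The 3 signals of each group did not overlap for 8 probe sets with higher and 2 with lower knockout-labelled signals, where all tested probe sets gave 37.5% and 20.1%. Genes with a higher call were Ube2o, Ube2l6, Ube2h, Fbxo7, Trim10 and Dnase2a, genes with a lower call were Hdac2 and Diaph2, and Xpo7 had none. By gene, at the brightest probe set, 8 of the 9 were called, 6 higher and 2 lower. Of 12799 genes taken the same way 45.8% were called, 26.1% higher and 19.7% lower. The members were chosen with earlier results of these data known, and this gap was not tested. The sizes spread widely, as the plot of differences shows, from Ube2o at the 98.8th percentile of all tested differences to Diaph2 at percentile 2.13.

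**Figure D1:**
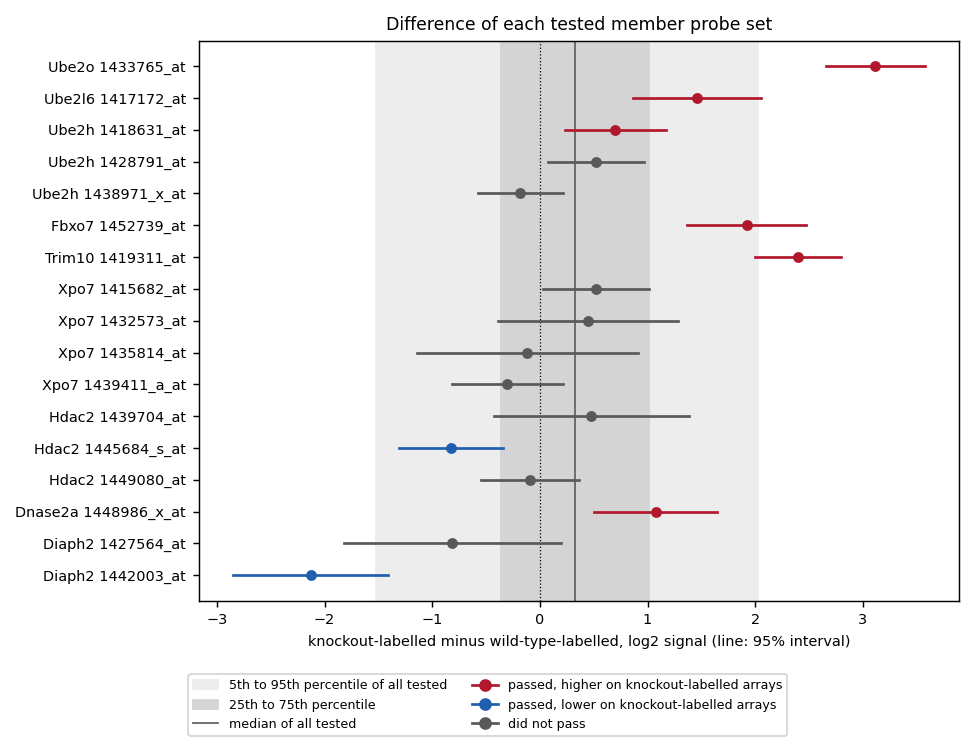
Difference of each of the 17 tested probe sets (points, knockout-labelled minus wild-type-labelled, log2 signal; lines, 95% intervals; n = 3 arrays per group) over the spread of all 27023 tested probe sets (grey bands and vertical line). Ube2o (3.12), Trim10 (2.40), Fbxo7 (1.92) and Diaph2 (-2.13) stand outside the 25th to 75th percentile band of -0.36 to 1.02, while the Xpo7 points lie inside it.

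The E2 enzymes were led by Ube2o, a large enzyme that joins E2 and E3 activity in 1 protein and is known to tag ribosomal and other proteins for removal in reticulocytes. Its probe set (1433765_at; gene at chr11:116537740-116581503, GRCm38.p6) gave 2261, 2372 and 3267 on the knockout-labelled arrays, against 329, 305 and 269 on the wild-type-labelled arrays. All 3 knockout-labelled signals were far above the highest wild-type-labelled signal. The means were 2634 ± 552 and 301 ± 30.3 (SD, n = 3 each). The difference of mean log2 signals was 3.12 ± 0.20 (SE, limma adjusted p = 1.89e-05), which is 8.67-fold, as all folds here are taken from log2 differences, and 2.79 relative to the median of all tested probe sets. It passed in 16 of 16 alternative analyses, with differences of 2.30 to 3.22.

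Ube2l6 encodes the E2 enzyme of ISG15, a ubiquitin-like protein induced by interferon. Its probe set (1417172_at; chr2:84798828-84810003) gave 456, 505 and 623 on the knockout-labelled arrays, against 177, 166 and 234 on the wild-type-labelled arrays. The groups stood apart, and within each group the array numbered 3 was the highest. The difference was 1.46 ± 0.26 (SE, limma adjusted p = 0.00274), a 2.75-fold higher signal and 1.14 relative to the median of all tested probe sets. After each array was centred on its own median the difference was 0.65 and no longer passed (adjusted p = 0.115), while the other 15 alternatives kept the call.

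Ube2h encodes the E2 partner of the CTLH ligase, a multi-subunit complex of erythroblasts built around Maea, and its transcript is known to build up in late erythroid maturation. The 4 probe sets of the gene (chr6:30211289-30304539) differed among themselves. The probe set 1418631_at gave 1933, 2985 and 2780 on the knockout-labelled arrays, against 1374, 1484 and 1835 on the wild-type-labelled arrays. These groups were separated only by the gap between 1933 and 1835. The difference was 0.70 ± 0.21 (SE, limma adjusted p = 0.0238), which passed in 10 of 16 alternatives and turned to -0.11 (adjusted p = 0.779) with arrays centred on their medians. The call was also lost without knockout-labelled array 2 (adjusted p = 0.0895) or 3 (0.0871) and without wild-type-labelled array 1 (0.0802) or 2 (0.0687).

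The other Ube2h probe sets did not pass as deposited. For 1428791_at the signals were 1238, 993 and 1428 on the knockout-labelled arrays, against 798, 780 and 953 on the wild-type-labelled arrays, with the groups apart (difference 0.52 ± 0.20, SE, limma adjusted p = 0.056; -0.29 with arrays centred on their medians). For 1438971_x_at, whose suffix marks probes that can bind other transcripts, the signals were 1135, 912 and 896 on the knockout-labelled arrays, against 1180, 1052 and 1091 on the wild-type-labelled arrays. These overlapped, and the difference was -0.18 ± 0.17 (SE, adjusted p = 0.41). With arrays centred on their medians it was -0.996 and passed as lower (adjusted p = 0.00779). The fourth, 1418632_at, was under the filter, with signals of 14.7, 41.3 and 19.2 on the knockout-labelled arrays, against 103, 24.6 and 12.9 on the wild-type-labelled arrays. The mean of all Ube2h probe sets, with the one under the filter included, differed by 0.14 (limma adjusted p = 0.643). The higher call of this gene rests on 1 of its probe sets.

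The promoters of Ube2l6 and Ube2h are shown because both genes had a higher call and because these windows hold matches to the CACCC motif to which Eklf binds. Sequences are from RefSeq (GRCm38.p6) and run 5′ to 3′ on the gene's strand, from 250 bases before to 50 bases after an annotated transcript start. Capitals mark matches to CCNCNCCC on either strand, where matches may overlap. The Ube2l6 window is chr2:84798578-84798877 on the plus strand, and the Ube2h window is chr6:30304490-30304789 on the minus strand.
Ube2l6: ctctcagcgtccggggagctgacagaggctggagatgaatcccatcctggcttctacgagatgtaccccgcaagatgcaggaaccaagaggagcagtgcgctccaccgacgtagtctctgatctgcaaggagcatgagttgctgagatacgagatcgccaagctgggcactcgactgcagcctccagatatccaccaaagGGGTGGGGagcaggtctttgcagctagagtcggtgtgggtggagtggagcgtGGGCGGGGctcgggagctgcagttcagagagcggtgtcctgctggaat
Ube2h: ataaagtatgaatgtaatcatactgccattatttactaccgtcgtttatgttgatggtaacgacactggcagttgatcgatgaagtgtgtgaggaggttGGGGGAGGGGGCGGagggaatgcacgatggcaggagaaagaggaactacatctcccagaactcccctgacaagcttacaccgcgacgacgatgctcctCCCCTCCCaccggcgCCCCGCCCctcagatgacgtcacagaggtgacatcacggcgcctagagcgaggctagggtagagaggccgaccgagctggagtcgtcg
The Ube2l6 window holds 2 matches, both on the opposite strand. The Ube2h window holds 5, of which 3 overlap in 1 run of capitals on the opposite strand and 2 lie on the gene's own strand. A further Ube2h window at chr6:30243754-30244053 holds 1 match. A match is common, since 49.5% of all 32851 promoter windows held at least 1, and 4 of the 10 windows found for 8 of the genes did (Ube2l6, both of Ube2h, and Dnase2a). The narrower form CCACACCC was in 3.56% of all windows and in 0 of these 10. The matches are descriptions of the letters only.

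Besides Ube2o, which joins E2 and E3 activity, the ligase genes Fbxo7 and Trim10 had higher knockout-labelled signals, by more than the spread between arrays. Fbxo7 encodes an F-box protein, the substrate-binding subunit of an SCF ubiquitin ligase, and also binds the proteasome regulator encoded by Psmf1. Its probe set (1452739_at; chr10:86020449-86051873) gave 2602, 4459 and 3688 on the knockout-labelled arrays, against 733, 908 and 1183 on the wild-type-labelled arrays. The lowest knockout-labelled signal was above the highest wild-type-labelled one. The difference was 1.92 ± 0.25 (SE, limma adjusted p = 0.000484), a 3.79-fold higher signal and 1.60 relative to the median of all tested probe sets, and it passed in 16 of 16 alternatives.

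Trim10 encodes a RING finger protein of the tripartite motif family that mouse erythroid cells need for terminal differentiation. Its probe set (1419311_at; chr17:36869496-36877833) gave 6712, 4910 and 7022 on the knockout-labelled arrays, against 1212, 1187 and 1098 on the wild-type-labelled arrays. The wild-type-labelled signals lay close together, with a coefficient of variation of 5.17%, against 18.4% on the knockout-labelled arrays. The difference was 2.40 ± 0.18 (SE, limma adjusted p = 3.16e-05), a 5.27-fold higher signal and 2.08 relative to the median of all tested probe sets. It passed in 16 of 16 alternatives, with differences of 1.58 to 2.64.

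The Trim10 and Fbxo7 promoters are shown because these genes had the largest rises among the members with a sequence, Trim10 at chr17:36869324-36869623 and Fbxo7 at chr10:86021679-86021978, both on the plus strand. Capitals mark a match to AGATAA, a form of the motif bound by the erythroid factor Gata1, searched on both strands.
Trim10: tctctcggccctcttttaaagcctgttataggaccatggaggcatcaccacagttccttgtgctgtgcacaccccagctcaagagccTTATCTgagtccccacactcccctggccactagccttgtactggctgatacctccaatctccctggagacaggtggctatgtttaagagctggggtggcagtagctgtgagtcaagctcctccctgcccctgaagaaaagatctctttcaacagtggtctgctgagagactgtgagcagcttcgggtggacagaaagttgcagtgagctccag
Fbxo7: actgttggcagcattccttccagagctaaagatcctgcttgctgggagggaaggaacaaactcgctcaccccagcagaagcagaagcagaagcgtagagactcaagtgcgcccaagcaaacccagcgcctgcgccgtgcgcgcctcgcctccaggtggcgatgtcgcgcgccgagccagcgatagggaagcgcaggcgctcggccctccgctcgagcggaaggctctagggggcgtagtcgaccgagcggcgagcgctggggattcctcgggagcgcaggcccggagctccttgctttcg
The Trim10 window holds 1 match on the opposite strand, 163 bases before the start. Of all windows 11.2% held AGATAA, and 2 of the 10 member windows did, that of Trim10 and the further window of Ube2h. The Fbxo7 window holds none of the 3 motifs searched.

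**Figure D2:**
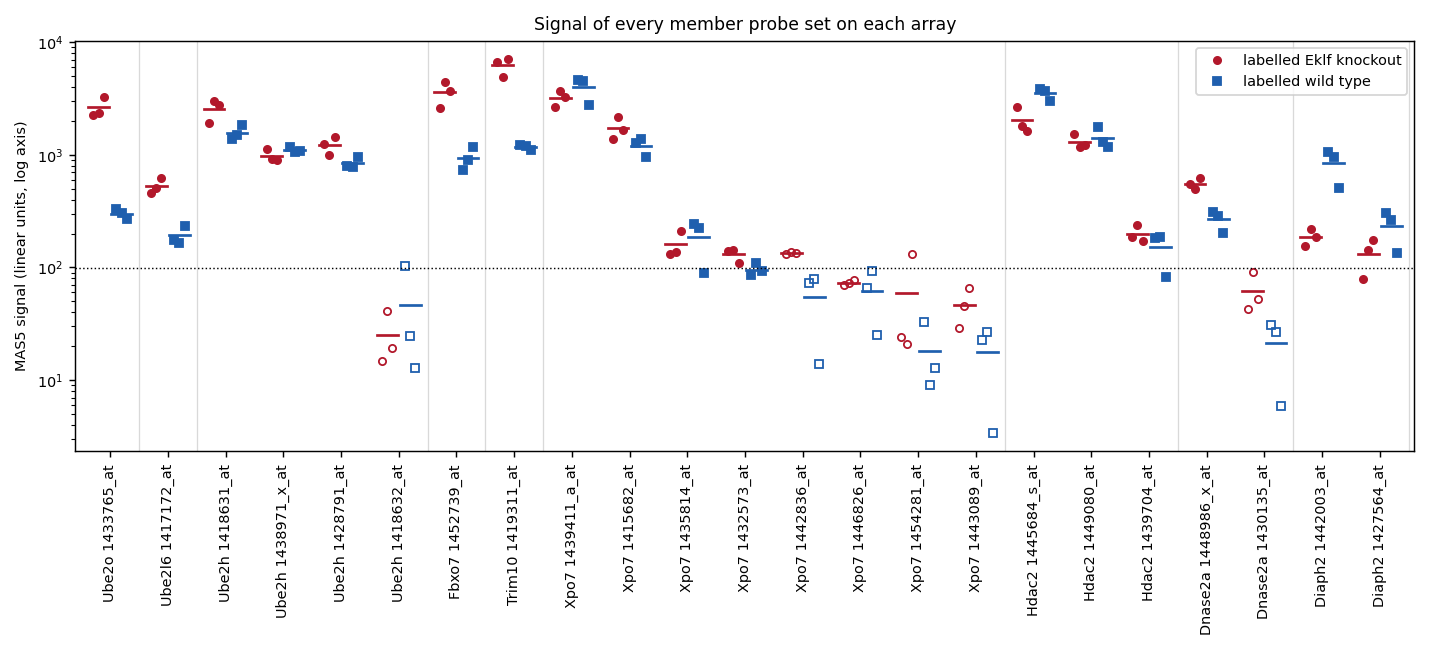
Signal of all 23 probe sets on each array (linear signal on a log axis; red circles, knockout-labelled; blue squares, wild-type-labelled; bars, mean of the 3 arrays; dotted line, filter at 98.6). Open symbols are the 6 probe sets under the filter. Ube2o, Ube2l6, Fbxo7, Trim10 and the tested Dnase2a probe set have red above blue with a clear gap, and Diaph2 1442003_at has blue above red.

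Among the genes of nuclear condensation, Xpo7 encodes a nuclear export receptor that in mouse erythroblasts carries histones and other proteins out of the condensing nucleus. Of its 8 probe sets (chr14:70662126-70770864) 4 were tested and 0 passed with limma. At an unadjusted p under 0.05 there was 1 of 4, higher, where 53.3% of all tested probe sets reached that level. The probe set 1415682_at came nearest, with 1388, 2166 and 1664 on the knockout-labelled arrays, against 1270, 1386 and 958 on the wild-type-labelled arrays. The groups were apart by the gap between 1388 and 1386 alone. The difference was 0.52 ± 0.22 (SE, adjusted p = 0.0799), which passed after quantile normalization (0.68, adjusted p = 0.043) and cyclic loess (0.72, 0.0379) and was -0.29 with arrays centred on their medians.

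The probe set 1439411_a_at gave 2644, 3676 and 3227 on the knockout-labelled arrays, against 4649, 4550 and 2787 on the wild-type-labelled arrays. Wild-type-labelled array 3 stood within the knockout-labelled range while the other two were above it, and the difference was -0.30 ± 0.23 (SE, limma adjusted p = 0.297). It passed as lower without wild-type-labelled array 3 (-0.54, adjusted p = 0.0323), with array weights (-0.47, 0.027) and with arrays centred on their medians (-1.12, 0.0027). The remaining tested Xpo7 probe sets were dim. For 1432573_at the difference was 0.45 (adjusted p = 0.343), which turned to -0.41 after quantile normalization, -0.44 after cyclic loess and -0.37 with arrays centred on their medians. For 1435814_at it was -0.12 (adjusted p = 0.844).

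The 4 Xpo7 probe sets under the filter had differences of 0.44 to 1.80, and with no filter 0 of them passed (limma adjusted p 0.099 to 0.593). One of them, 1442836_at, gave 132, 138 and 135 on the knockout-labelled arrays, against 72.6, 78.9 and 13.8 on the wild-type-labelled arrays. The knockout-labelled signals were almost equal there, and wild-type-labelled array 3 was far below the other two. The mean of all Xpo7 probe sets, with those under the filter included, differed by 0.73 (adjusted p = 0.163). The brightest Xpo7 probe set differed by -0.30, so the sign depends on which probe sets are used.

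Hdac2 encodes a class I histone deacetylase needed for chromatin condensation and nuclear expulsion in mouse fetal erythroblasts. The probe set 1445684_s_at, whose suffix marks probes shared by related transcripts, gave 2679, 1785 and 1619 on the knockout-labelled arrays, against 3870, 3692 and 3009 on the wild-type-labelled arrays. Here the wild-type-labelled signals were all higher, and knockout-labelled array 1 was nearest to them. The difference was -0.82 ± 0.21 (SE, limma adjusted p = 0.0141) and -1.15 relative to the median of all tested probe sets. The call was lost after quantile normalization (-0.60, adjusted p = 0.0619) and cyclic loess (-0.58, 0.06), and without knockout-labelled array 2 (0.0548) or 3 (0.0593).

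The other Hdac2 probe sets (gene at chr10:36974297-37001889) did not pass as deposited. The probe set 1449080_at gave 1522, 1183 and 1229 on the knockout-labelled arrays, against 1751, 1294 and 1182 on the wild-type-labelled arrays, which overlapped (-0.09 ± 0.20, SE, limma adjusted p = 0.727). This value was 0.053 after quantile normalization, and it passed as lower at -0.90 with arrays centred on their medians (adjusted p = 0.013). The probe set 1439704_at gave 188, 237 and 171 on the knockout-labelled arrays, against 183, 187 and 82.8 on the wild-type-labelled arrays (0.48 ± 0.40, adjusted p = 0.351; -0.32 after quantile normalization). The mean of the 3 probe sets differed by -0.15 (adjusted p = 0.597), so the lower call of Hdac2 as deposited rests on 1 of 3 probe sets.

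Dnase2a encodes the acid DNase with which island macrophages digest the DNA of expelled nuclei in their lysosomes. The tested probe set (1448986_x_at; chr8:84908755-84911703) gave 556, 494 and 617 on the knockout-labelled arrays, against 311, 287 and 203 on the wild-type-labelled arrays. Its suffix marks probes that can bind other transcripts, and the call of this gene rests on this probe set alone. The groups stood apart, with a difference of 1.08 ± 0.25 (SE, limma adjusted p = 0.00922), a 2.11-fold higher signal and 0.75 relative to the median of all tested probe sets. It was lost with arrays centred on their medians (0.26, adjusted p = 0.441) and kept in the other 15 alternatives. The shared probe set 1430135_at was under the filter, with 42.7, 90.8 and 52.6 on the knockout-labelled arrays, against 31.2, 26.9 and 5.87 on the wild-type-labelled arrays.

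Macrophage markers stood beside this value. Of 9 tested, 8 were higher, among them Vcam1, the adhesion molecule of island macrophages, by 1.81 on the log2 scale, Cd5l by 1.90 and Mrc1 by 2.43. Marco, a scavenger receptor, averaged 1413 ± 570 on the knockout-labelled arrays and 9.25 ± 2.07 on the wild-type-labelled arrays (SD, n = 3 each). No fold is given for it, since the wild-type-labelled signals lie far under the filter and it was tested only through the other group, as was C1qc, a complement subunit of macrophages. Csf1r, the receptor of macrophage growth factor, was lower by 1.06, with means of 4287 ± 537 on the knockout-labelled arrays and 8908 ± 847 on the wild-type-labelled arrays (SD, n = 3 each). Their part in the Dnase2a difference was not tested.

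Diaph2 encodes a diaphanous formin, an actin-nucleating protein. Its protein is called mDia3, whereas mDia2, the formin described in mouse erythroblast nuclear expulsion together with Rac proteins, is encoded by Diaph3. The Diaph2 probe set 1442003_at (gene at chrX:129749668-130465834) gave 155, 220 and 185 on the knockout-labelled arrays, against 1069, 964 and 509 on the wild-type-labelled arrays. Every knockout-labelled signal was below every wild-type-labelled one, and wild-type-labelled array 3 was the lowest of its group. The difference was -2.13 ± 0.32 (SE, limma adjusted p = 0.00114), a 4.37-fold lower signal on the knockout-labelled arrays and -2.45 relative to the median of all tested probe sets, and it passed in 16 of 16 alternatives.

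The second Diaph2 probe set, 1427564_at, gave 78.4, 144 and 176 on the knockout-labelled arrays, against 304, 265 and 134 on the wild-type-labelled arrays. The groups overlapped through wild-type-labelled array 3, and the difference of -0.81 ± 0.45 did not pass (SE, limma adjusted p = 0.163). It passed after quantile normalization (-1.57, adjusted p = 0.0135), cyclic loess (-1.61, 0.0118) and median centring (-1.63, 0.00455). The mean of both probe sets differed by -1.47 (adjusted p = 0.00939).

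Scaling bore on the members unequally. Of the 11838 probe sets called as deposited 64.2% were higher, against 46.8% of those called after quantile normalization, 48.0% of those with cyclic loess and 17.1% of those with arrays centred on their medians. Quantile normalization brought the median difference of all tested probe sets to 0.01, cyclic loess to 0.03 and median centring to -0.49. Under all 3 rescalings Ube2o, Fbxo7 and Trim10 had a higher call and Diaph2 1442003_at had a lower call, as the plot of the scalings shows. Ube2l6, Dnase2a and Ube2h 1418631_at were called higher under 2 of them and not after median centring. Median centring also gave lower calls that the deposited scale did not, for Ube2h 1438971_x_at, Xpo7 1439411_a_at, Hdac2 1449080_at and Diaph2 1427564_at. Signs turned under at least 1 rescaling for Ube2h 1418631_at and 1428791_at, Xpo7 1415682_at and 1432573_at, and Hdac2 1439704_at and 1449080_at.

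**Figure D3:**
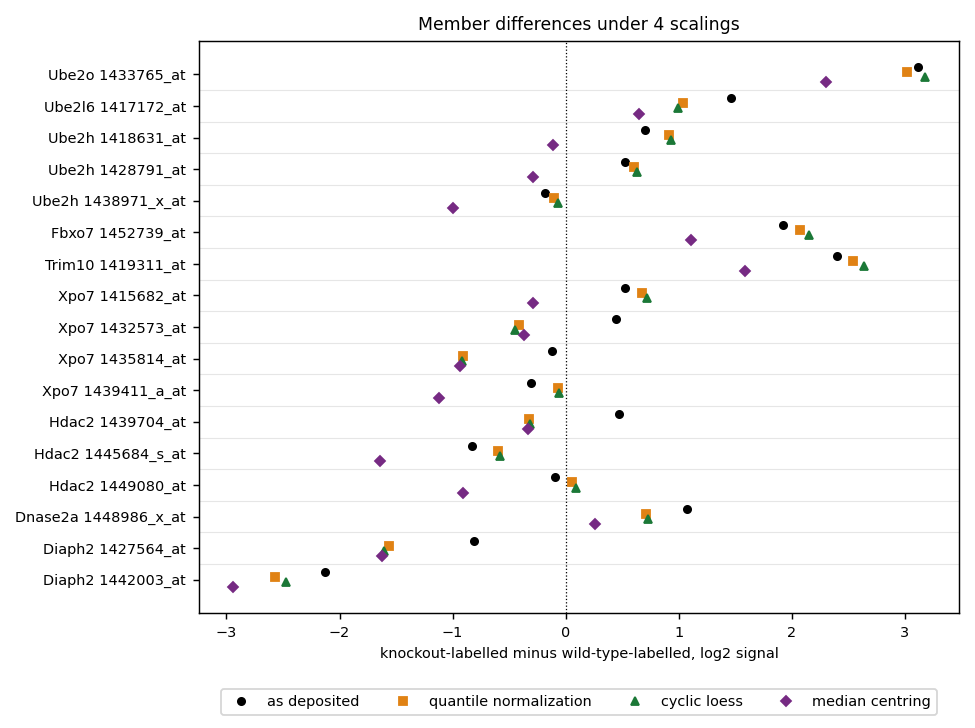
Difference of the 17 tested probe sets (knockout-labelled minus wild-type-labelled, log2 signal) as deposited and under the 3 rescalings, quantile normalization, cyclic loess and median centring. All 4 values lie above 0 for Ube2o, Ube2l6, Fbxo7, Trim10 and Dnase2a and below 0 for both Diaph2 probe sets, while Ube2h 1418631_at runs from -0.11 to 0.93.

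The difference of a typical probe set fell with brightness, so the members were also set beside probe sets of like signal. Over 10 bins of equal size by mean log2 signal, numbered from dim to bright, the median difference was 0.93 in bin 1 and -0.19 in bin 10. Trim10 and Fbxo7 lay in bins 10 and 9, whose medians were -0.19 and -0.24, and stood above the 75th percentiles of those bins, 0.32 and 0.25. Ube2o lay in bin 8 (75th percentile 0.39), and Ube2l6 in bin 5 (75th percentile 1.08). Dnase2a, also in bin 5, was just under that 75th percentile. Ube2h 1418631_at (0.70) and Xpo7 1415682_at (0.52) were above the 75th percentile of bin 9, and Ube2h 1428791_at (0.52) above that of bin 8. Hdac2 1445684_s_at, at -0.82, was below the 25th percentile of bin 10, -0.63, and Diaph2 1442003_at below that of bin 6, -0.34. Diaph2 1427564_at (-0.81) and Xpo7 1435814_at (-0.12) were below the 25th percentile of bin 3, 0.22. The tested member probe sets not named here lay between the 25th and 75th percentiles of their bins.

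**Figure D4:**
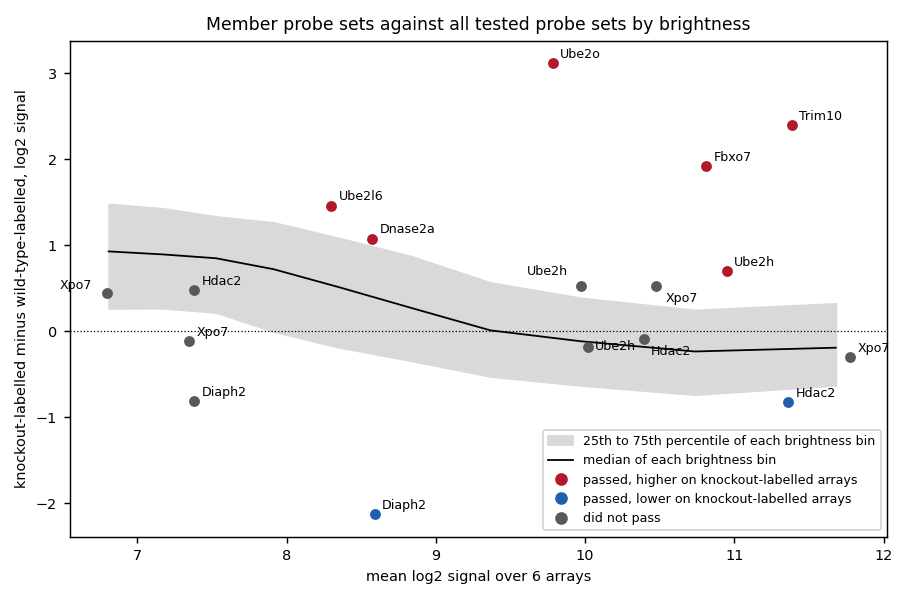
Difference of the 17 tested probe sets (points, knockout-labelled minus wild-type-labelled, log2 signal) against mean log2 signal over the 6 arrays, over the median (line) and the 25th to 75th percentiles (grey) of 10 equal brightness bins of all tested probe sets. The median is 0.93 in the dimmest bin and -0.19 in the brightest. Ube2o, Trim10, Fbxo7, Ube2h 1418631_at and Xpo7 1415682_at are among the points above the grey band, and both Diaph2 probe sets are among those below it.

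Single arrays did not contribute evenly. Wild-type-labelled array 3, which had the lowest median signal, was the lowest of its group in 11 of the 17 tested member probe sets (64.7%), against 47.9% of all tested probe sets. Knockout-labelled array 1 was the lowest of its group in 9 of the 17 (52.9%), against 37.3% of all tested probe sets. Leaving out 1 array at a time left 5 to 7 higher and 1 to 3 lower calls among the 17. Ube2o, Ube2l6, Fbxo7, Trim10, Dnase2a and Diaph2 1442003_at were called in each of these 6 fits.

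The genes around the members were taken from lists of their pathways, each gene at its brightest probe set by mean log2 signal. At that level 45.8% of 12799 genes were called, 26.1% higher and 19.7% lower, with a median difference of 0.14. Of 190 listed genes 36 were higher and 56 lower. After median centring, which lowers all differences alike, 12 were higher and 124 lower, against 34 and 47 after quantile normalization and 34 and 41 with cyclic loess. The plot of the pathway lists gives each gene.

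Among 30 tested E2 enzymes 5 were higher, 11 lower and 14 did not pass (median -0.17). Of the 5 higher ones 3 were the members Ube2o, Ube2l6 and Ube2h, so that the other 27 had 2 higher and 11 lower calls (median -0.21). Ube2d1, an E2 that serves many ligases, fell to 300.3 ± 103 on the knockout-labelled arrays, against 953 ± 16.1 on the wild-type-labelled arrays (SD, n = 3 each), a difference of -1.74. Ube2e1 fell by 1.01, although its other tested probe set gave 0.92. Of the 30, 5 were higher and 6 lower after quantile normalization (median -0.08), and 5 and 5 with cyclic loess (-0.05). After median centring 1 of the 30 was higher and 22 were lower.

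In the CTLH ligase, which works with Ube2h, 6 of 11 subunits and partners were higher and 1 lower (median 0.47). Ypel5 rose by 1.74, with 2286, 4726 and 4045 on the knockout-labelled arrays, against 955, 910 and 1347 on the wild-type-labelled arrays. Armc8, a scaffold subunit, rose by 1.66, while its other 4 tested probe sets ran from -1.11 to 0.53. Ranbp10 rose by 0.86, a call lost at 0.05 with arrays centred on their medians, and Ranbp9, its close relative in the complex, fell by 1.19. Maea, a catalytic RING subunit known to act in erythroblasts and island macrophages, was at -0.32 and did not pass (limma adjusted p = 0.187). Quantile normalization (median 0.72) and cyclic loess (0.71) each gave 6 higher and 1 lower call. After median centring 2 of the 11 were higher and 3 lower.

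The ligase partners of Fbxo7 had few calls, with 2 of 10 higher and 0 lower (median -0.02; limma, 3 and 1 at an unadjusted p under 0.05), and 0 higher and 6 lower after median centring. Quantile normalization and cyclic loess each gave 3 higher and 0 lower calls. Psmf1, the proteasome regulator PI31 that Fbxo7 binds, rose by 1.48, with 2313, 2806 and 2772 on the knockout-labelled arrays, against 863, 810 and 1188 on the wild-type-labelled arrays. Uba3, a subunit of the enzyme that activates the cullin modifier Nedd8, rose by 1.06. Both calls were lost after median centring (0.67 and 0.24). The cullin Cul1 (-0.12) and the adaptor Skp1 (0.03) did not pass.

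In the ISG15 pathway, which Ube2l6 serves, 3 of 5 genes were higher and 0 lower (median 0.98), the same counts as at an unadjusted p under 0.05 in limma. The list had 2 higher and 0 lower calls after quantile normalization (median 0.35) and cyclic loess (0.34), and 1 higher and 1 lower, the ligase Trim25, after median centring (0.17). Uba7, the E1 enzyme of ISG15, rose by 1.86, with 3053, 4160 and 4043 on the knockout-labelled arrays, against 1030, 903 and 1144 on the wild-type-labelled arrays. All of its 3 tested probe sets were above 0, the other two at 1.36 and 1.77. Arih1, a ligase that cooperates with cullin ligases, rose by 1.43, and its other tested probe sets ran from 0.08 to 0.56. After median centring it was 0.61 and no longer passed (adjusted p = 0.0584). Usp18, which removes ISG15, rose by 0.98, a call lost after each of the 3 rescalings and kept in 1 of the 6 fits that leave out an array (adjusted p up to 0.134). Isg15 itself was not analysed here.

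Of 30 tested members of the TRIM family 6 were higher, Trim10 among them, and 13 lower (median -0.29). Higher and lower calls were 3 and 13 after quantile normalization, 2 and 12 with cyclic loess, and 2 and 19 after median centring (median -1.10). Trim34a was lower, with means of 41.4 ± 13.3 on the knockout-labelled arrays and 650 ± 66.4 on the wild-type-labelled arrays (SD, n = 3 each). Trim12a was lower as well, with means of 31.5 ± 23.6 on the knockout-labelled arrays and 402 ± 75.2 on the wild-type-labelled arrays. No fold is given for either, since the knockout-labelled means lie under the filter. Both lie among near-identical neighbours whose transcripts the probes may not tell apart, so these values are uncertain. Trim35 fell by 1.24, with 1506, 1514 and 1605 on the knockout-labelled arrays, against 3481, 3531 and 3942 on the wild-type-labelled arrays, although its other tested probe set gave 0.05.

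The dynein motor, on which Trim58 is known to act, showed 3 higher and 1 lower call among 17 genes (median -0.16), and 0 higher and 11 lower after median centring (median -0.97). Quantile normalization gave 4 higher and 2 lower calls, and cyclic loess 3 and 1. Dctn6, a dynactin subunit, fell by 1.63, with a second tested probe set at -0.19. Dctn4 (0.62), Dctn2 (0.61) and the light intermediate chain Dync1li1 (0.61) rose, and all 3 were below 0 and not called after median centring. Each also lost its call in at least 1 fit that left out an array.

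Nuclear transport genes, the family of Xpo7, held 0 higher and 7 lower calls among 27 (median -0.25). There were 22 lower calls after median centring (median -1.06), and 4 both after quantile normalization (-0.06) and with cyclic loess (-0.05, with 1 higher). At an unadjusted p under 0.05 from the same limma fit 1 was higher and 8 were lower. Ipo5, an importin, fell to 3114 ± 909 on the knockout-labelled arrays, against 6206 ± 151 on the wild-type-labelled arrays (SD, n = 3 each), a difference of -1.03. Kpnb1, the main importin beta, fell by 0.78, Kpna4 by 0.87 and Tnpo1 by 0.88, and each of these 3 had at least 1 other tested probe set above 0. The Kpnb1 call was lost after quantile normalization (adjusted p = 0.0542), that of Kpna4 without knockout-labelled array 3 (0.0571) or wild-type-labelled array 1 (0.0565), and that of Tnpo1 in 4 alternatives (0.0576 to 0.0628). Xpo1, the general exporter, was at -0.08 and did not pass (limma adjusted p = 0.794).

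Of 20 histone deacetylases and partners 3 were higher and 6 lower (median -0.29). There were 3 higher calls after quantile normalization and cyclic loess, with 4 and 3 lower, and median centring gave 1 higher and 14 lower (median -1.10). Hdac1, the close relative of Hdac2, fell by 0.69, with 3436, 3005 and 2899 on the knockout-labelled arrays, against 5054, 4690 and 5347 on the wild-type-labelled arrays. Hdac1 was also called lower under quantile normalization, cyclic loess and median centring. Mta3, a subunit of the NuRD complex, rose by 1.56, and Hdac11 rose by 0.87, which no longer passed at 0.06 with arrays centred on their medians.

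Of 25 genes of formins, Rac proteins and actomyosin 5 were higher and 10 lower (median -0.38), and 4 and 16 after median centring (median -1.20). Quantile normalization gave 5 higher and 9 lower calls, and cyclic loess 6 and 7. Plek2, an actin regulator known in late erythroblasts, had the largest rise among the pathway genes named, to 1572 ± 219 on the knockout-labelled arrays, against 127 ± 27.3 on the wild-type-labelled arrays (SD, n = 3 each), a difference of 3.64. The formin Daam1 rose by 2.00 and Cit, a kinase of cytokinesis, by 2.54, although other tested Cit probe sets ran from -1.19 to 1.23. Rac2 fell by 1.07 and Vim, an intermediate filament lost during red cell maturation, by 1.56. Diaph3, which encodes mDia2, gave 474, 548 and 342 on the knockout-labelled arrays, against 445, 409 and 243 on the wild-type-labelled arrays, which overlapped (0.34 ± 0.31, SE, limma adjusted p = 0.386; -0.04 after quantile normalization). Diaph1 was at -0.44 and did not pass (adjusted p = 0.0914).

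Of 11 genes of nuclear condensation 2 were higher and 6 lower (median -0.73), and 1 and 9 after median centring (median -1.55). Quantile normalization and cyclic loess each gave 2 higher and 7 lower calls. Lmna, a nuclear lamin, rose by 1.73, whereas Lbr, a receptor of the inner nuclear membrane, fell by 0.92 and Kmt5a, the histone H4 methyltransferase also called Setd8, by 0.93. One of the other tested Kmt5a probe sets gave 1.00. Cdk9, a kinase of transcription elongation, fell by 1.32. Foxo3, a transcription factor of late erythroid maturation, rose by 0.93, although its groups overlapped with 1470, 2970 and 3599 on the knockout-labelled arrays, against 1488, 1171 and 1306 on the wild-type-labelled arrays. Its call held in 2 of the 6 fits that leave out an array (adjusted p up to 0.127) and was lost after median centring (0.12, adjusted p = 0.798). Riok3 was at -0.27 and did not pass (limma adjusted p = 0.187).

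Among 5 tested DNases 1 was higher, Dnase2a, and 1 lower (median 0.50), and 0 and 2 after median centring. Quantile normalization and cyclic loess each gave 1 higher and 1 lower call. Dffb, the DNase that cuts chromatin in apoptosis, gave 364, 150 and 100.1 on the knockout-labelled arrays, against 521, 462 and 606 on the wild-type-labelled arrays. Its difference was -1.58, with knockout-labelled array 1 nearest to the other group, and its second tested probe set gave -0.24. The call was lost without knockout-labelled array 2 (adjusted p = 0.0599) or 3 (0.0562).

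**Figure D5:**
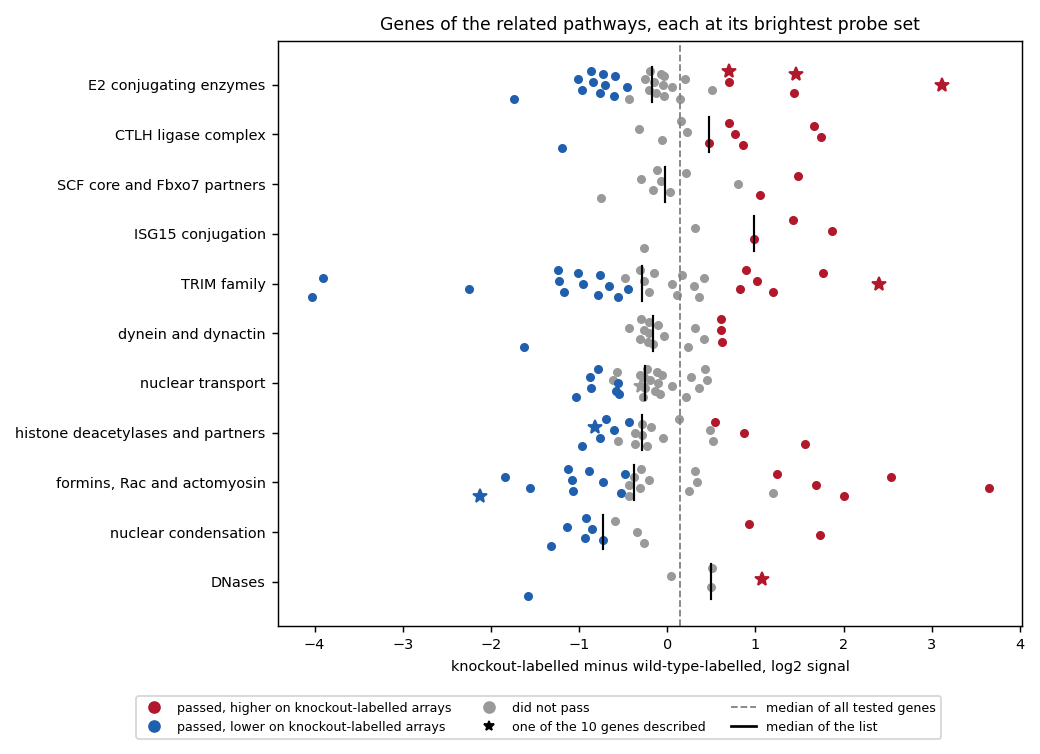
Difference of each tested gene of the 11 pathway lists at its brightest probe set (x axis, knockout-labelled minus wild-type-labelled, log2 signal; n = 3 arrays per group). Red and blue points passed the test, grey ones did not, stars are the described genes, black bars are list medians and the dashed line is the median of all tested genes, 0.14. As deposited, the ISG15, CTLH and nuclear condensation lists have medians of 0.98, 0.47 and -0.73. Median centring, which lowers all differences alike, gives 0.17, -0.34 and -1.55. Quantile normalization gives 0.35, 0.72 and -0.62, and cyclic loess 0.34, 0.71 and -0.62. The points near -4 are Trim34a and Trim12a, whose knockout-labelled means lie under the filter.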

How the data were processed

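RNA from 6 samples, 3 labelled as Eklf knockout fetal liver and 3 as wild-type fetal liver, was hybridised to 1 single-colour Affymetrix array each. The labels' protocols give 10 micrograms of total RNA. The labels call the RNA samples independent. Each probe set has 1 deposited intensity per array, on a linear scale. The submitters' processing notes name MAS5 and Affymetrix Expression Console, without versions. In MAS5, probes are corrected for local background, summarised per probe set and scaled to a common trimmed mean per array (500 here), which leaves the medians free to differ. No pair of arrays held identical values, and correlations of log2 signals were 0.897 to 0.906 within the knockout-labelled arrays, 0.922 to 0.944 within the wild-type-labelled arrays and 0.822 to 0.858 between them.

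The 303 signals under 1 were raised to 1 before taking log2. Of 45101 probe sets 34958 were annotated to 1 gene, 932 to several and 9211 were unlisted, and 64 controls were left out. The 40th percentile of mean log2 signals, 6.62, was the filter, and the 27023 probe sets at or above it were tested with limma 3.58.1 in R 4.3.3 (lmFit, eBayes with a variance trend), two-sided, at 0.05 after Benjamini-Hochberg adjustment across these probe sets. Every adjusted p in the text is from limma. Brackets give SE or SD as named. Genes of a list were taken at their brightest probe set (highest mean log2 signal). The code was tested on simulated data.

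The members, the gene lists and the rule for named genes were chosen with earlier results of these data known. Named were all members at every probe set, of each pathway list the 4 called genes of smallest p (or fewer), and some partners and relatives, of which Isg15 and Ube2l3 were not analysed here. Cul1, Skp1 and the macrophage markers Vcam1, Cd5l, Mrc1, Marco, Csf1r and Cd163 fall outside this rule and were picked once their values were known. Replicate numbers were checked for pairing through the correlation of deviations from the group means, which was 0.042, 0.054 and 0.076 for same-numbered arrays, and the numbers were not taken as pairs. Alternatives were 3 other scalings, offsets of 16 and 64, other filters, other variance models, the replicate number as a block, other units of testing, a threshold of 0.01 and each array left out in turn. Promoter sequences and gene positions are from RefSeq tables of GRCm38.p6. Plots were made in Python 3.11.15 with matplotlib 3.10.9.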

Additional observations from a re-analysis of the deposited data

How the results depend on the processing

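As deposited 11838 probe sets were called, and among the members 6 were called higher and 2 lower. The number over all probe sets was 6232 with the brightest probe set per gene, 5688 with the mean of the probe sets of a gene (fewer features were tested in both) and 6147 at a threshold of 0.01, where 49 of the listed pathway genes were called in place of 92. Member calls after median centring were 3 higher and 6 lower, and lower member calls were 4 with array weights, 1 with the mean of probe sets and 1 at a threshold of 0.01; beyond what these settings do by construction, the cause was not tested. Leaving out each array in turn gave 8357 to 11559 calls over all probe sets, 5 to 7 higher and 1 to 3 lower member calls and 62 to 91 pathway calls, with 1 lower member call without knockout-labelled array 2 or 3.

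Signs turned at single probe sets, none of them called in the setting named, and the cause was not tested. After median centring Ube2h 1418631_at was at -0.11, Ube2h 1428791_at at -0.29, Xpo7 1415682_at at -0.29, Xpo7 1432573_at at -0.37 and Hdac2 1439704_at at -0.34. After quantile normalization Xpo7 1432573_at was at -0.41, Hdac2 1439704_at at -0.32 and Hdac2 1449080_at at 0.053, and after cyclic loess these were at -0.44, -0.32 and 0.093. Leaving out 1 array at a time, Xpo7 1435814_at ran from -0.59 to 0.15, with values above 0 without knockout-labelled array 1 or wild-type-labelled array 1 or 2, and Hdac2 1449080_at ran from -0.21 to 0.076, with a value above 0 without wild-type-labelled array 1. Over all tested member probe sets and alternatives 225 values kept their sign and side of the threshold, 17 passed where the value as deposited did not, 11 lost the call with the sign kept, and 15 changed sign, 1 of them with a lost call (12 lost calls in all).

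With the replicate number as a block 11829 probe sets were called, with 6 higher and 2 lower member calls and 92 pathway calls, and no member probe set changed its call. Same-numbered arrays correlated at 0.042 to 0.076, and every array correlated best with its own number, which is a hint from the data and not from the design. Detection calls were not used here, so signals near or under the filter of 98.6 may not be above background. The depth of each value is unknown beyond the signal, and 3 arrays per group limit the precision.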
